A study of Danio rerio with 16 samples.

Results

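The change of the ventricular transcriptome between 7 and 21 days post-cryoinjury (dpci) was examined in nr4a1 mutant zebrafish. The comparison uses 4 of the 16 samples of the series, namely 2 samples of mutant ventricle at 7 dpci and 2 at 21 dpci, chosen by their labels, and asks how the injury response was resolved in the mutant between these days. All fish were adults. In the mutants (nr4a1 -/-, allele nc40) CRISPR/Cas9 had inserted sequence into exon 2, which leads to a premature stop codon, and cryoinjury was made by touching the ventricle with a metal probe cooled in liquid nitrogen. Uninjured mutant ventricles (0 dpci) served to say how far a level at 21 dpci still lay from the uninjured state, and wild-type ventricles at 7 and 21 dpci, cryoinjured in the same way, served to test whether a change differed between genotypes. Mutants and wild types at 2 dpci entered the common estimate of spread and are plotted for 12 genes. Each condition had 2 samples. How many ventricles made up a sample, the sex of the fish and the hour of collection are not given in the sources used here. The study calls the replicates biological, whereas the labels do not say whether they stem from separate animals. The p-values rest on the spread between samples of a condition, shared over all 16 samples and across genes, and that spread may be technical. Beyond counting noise, the coefficient of variation between the 2 mutant samples was 3.53% at 7 dpci and 2.37% at 21 dpci.

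Nr4a1 is an orphan nuclear receptor that acts as a transcription factor and is induced early by many stimuli. In mammals it is best known in the myeloid lineage, where it restrains inflammatory gene expression in macrophages. After cryoinjury of the zebrafish ventricle, neutrophils and macrophages clear the dead tissue, epicardial cells and fibroblasts lay down a temporary matrix rich in fibronectin, periostin and collagen, and surviving cardiomyocytes divide. In the following weeks inflammation subsides, the matrix is remodelled and new muscle matures.

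RNA was sequenced in bulk, and the deposited values are read counts per gene. The 4 mutant libraries held between 14333475 and 21122846 counts, and a level of 1 CPM (counts scaled to the sequencing depth and by the trimmed mean of M-values, TMM) corresponded to between 15.8 and 20.3 counts. The samples of 1 day lay closer to each other than to the samples of the other day, with distances in log2 CPM of 45.1 and 41.4 within a day and of 97.3 to 99.3 between days. The share of mitochondrially encoded counts was 13.7% and 13.4% at 7 dpci and 16.2% and 15.8% at 21 dpci, and that of hemoglobin counts was 0.193% and 0.194% at 7 dpci and 0.128% and 0.132% at 21 dpci. Markers written down for ventricular muscle were present in every sample, with no common direction. The myosin light chain gene myl7 was at 7793 and 8009.8, then 12701 and 11702 CPM and the troponin gene tnnt2a at 3194 and 3188, then 4876 and 4740.1 CPM. The natriuretic peptide genes nppa (2558 and 2584, then 2269 and 2263 CPM) and nppb (291 and 303, then 75.7 and 74.9 CPM) were lower at 21 dpci. vmhc was not found under that name. myl7 is also counted among the atrial genes below, so it does not mark the ventricle alone. The liver markers fabp10a and vtg1 were at 0 to 0.101 CPM, the third, apoa1a, was at 2.42 and 1.71, then 1.82 and 1.61 CPM, and the fast skeletal muscle markers mylpfa and tnnt3a were at 0 to 1.90 CPM. The muscle creatine kinase gene ckma, written down as a marker of skeletal muscle, stood at 4406 and 4407, then 4879 and 4985 CPM, with both defining fast muscle genes near 0. Because ventricles were sequenced whole, fewer cells of a type and less RNA per cell cannot be told apart for any result below. In the rest of the text, a pair of CPM values for 7 dpci followed by a pair for 21 dpci gives the 4 samples of a gene.

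The targeted gene itself was measured first. nr4a1 was at 134 and 135 CPM at 7 dpci and 163 and 171 CPM at 21 dpci, so the samples of the days did not overlap, but the log2 fold change of 0.31 ± 0.044 (SE) stayed under the threshold for a differentially expressed gene (DEG, meaning an adjusted p below 0.05 with a log2 fold change beyond 0.5 in either direction). Uninjured mutants had a mean of 55.7 CPM, and the level at 21 dpci was higher than that (log2 fold change 1.58). In wild types the mean went from 217 CPM at 7 dpci to 139 CPM at 21 dpci. The interaction of genotype and day was above 0 for this gene (0.95 on the log2 scale, edgeR quasi-likelihood test, adjusted p = 1.15e-20). Transcripts of the mutant allele were counted in all mutant samples, so the level of nr4a1 does not check the genotype. Among its relatives, nr4a3 (14.9 and 15.9, then 24.9 and 30.9 CPM) and nr4a2a (2.47 and 2.91, then 5.13 and 4.33 CPM) rose, whereas nr4a2b was at 4.68 and 4.62, then 4.39 and 4.93 CPM, with overlapping days. Uninjured mutants had 41.9 and 43.3 CPM of nr4a3, so its 21 dpci level was still below that at 0 dpci. They had 2.42 and 2.96 CPM of nr4a2a. Uninjured wild types had 3.81 and 2.75 CPM of nr4a3. The call of nr4a2a was lost without replicate 1 of either day (log2 fold change 0.69 in both cases).

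Between 7 and 21 dpci, 2382 of the 17541 genes tested were upregulated (13.6%) and 3190 were downregulated (18.2%), so that 31.8% were DEGs in either direction. Large changes went mostly down: beyond an absolute log2 fold change of 3 there were 81 downregulated and 7 upregulated genes. In 75.3% of the genes tested the samples of the days did not overlap, and among the DEGs only 7 had overlapping samples. The split of the calls depended on the scaling. With library totals alone in place of TMM, 1147 genes were higher and 4529 lower (20.2% of the DEGs higher, against 42.7%), and the median log2 fold change of all genes moved from 0.0187 to -0.181. Changes below are given on the TMM scale.

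Part of the genes that declined had not returned to the uninjured level. Against mutants at 0 dpci, 2452 genes were higher at 21 dpci (14%) and 1281 were lower (7.3%). That comparison shares the 21 dpci samples with the main one, so its values are given side by side with the main values and not as a separate result. Of the 3190 downregulated genes, 669 were still above their 0 dpci level, 508 were below it and 2013 were not called. Of the 2382 upregulated genes, 629 were above the 0 dpci level, 46 below it and 1707 not called.

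**Figure D1:**
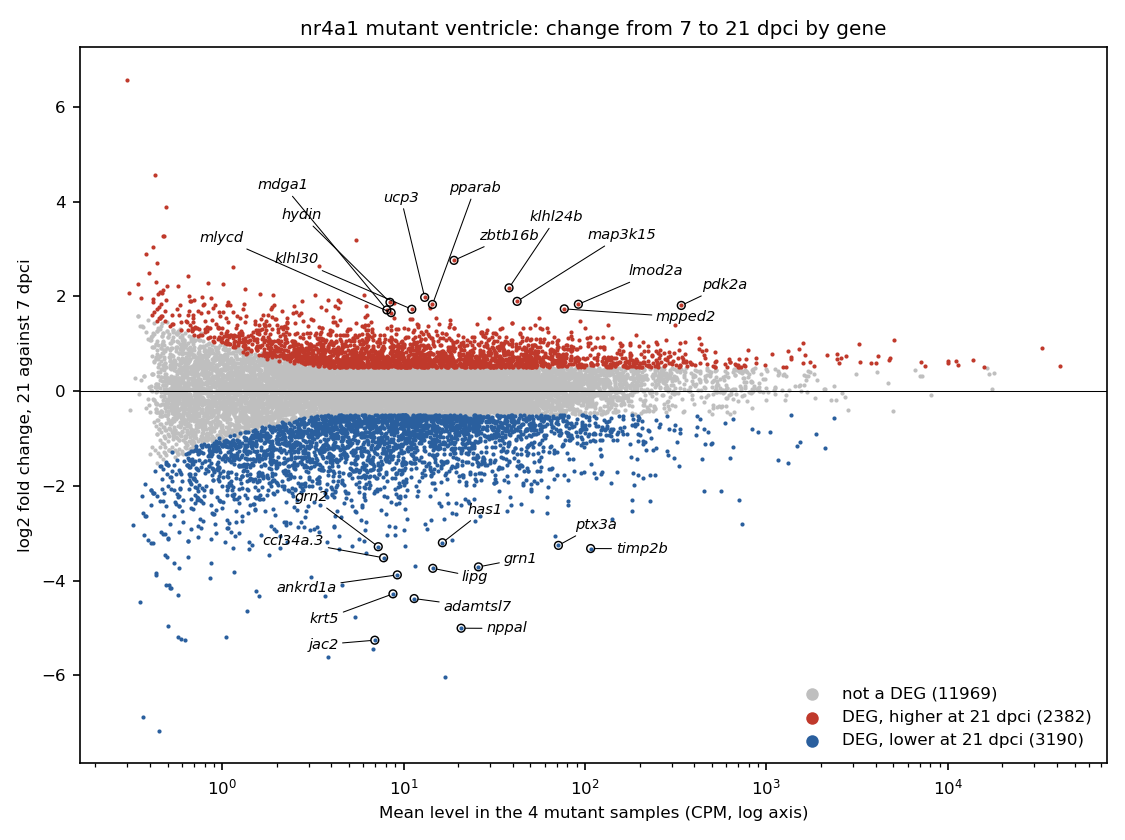
Change of each of the 17541 genes tested, with the mean level in the 4 mutant samples (CPM, log axis) on the horizontal axis and the log2 fold change of 21 against 7 dpci on the vertical axis. Red points are the 2382 upregulated and blue points the 3190 downregulated DEGs, and circles mark the 12 named genes with the largest change in each direction among those with at least 10 CPM at 1 of the days. The blue cloud reaches further from 0 than the red one at levels above 10 CPM.

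The 12 largest changes in each direction were taken among DEGs with a gene symbol, a mean of at least 10 CPM at 1 of the days and no overlap between the days. The decreases were those of jac2, nppal, adamtsl7, krt5, ankrd1a, lipg, grn1, ccl34a.3, timp2b, grn2, ptx3a and has1, with log2 fold changes from -5.26 to -3.2. nppal, a natriuretic peptide gene, was at 38.1 and 42.4 CPM at 7 dpci and 1.18 and 1.31 CPM at 21 dpci, a 32.1-fold decrease to a level below that of uninjured mutants (4.39 CPM, log2 fold change -1.81). ankrd1a, which encodes a cardiac ankyrin repeat protein induced by mechanical load, was at 17.4 and 17.2 CPM at 7 dpci and 1.38 and 0.956 CPM at 21 dpci, also below the 0 dpci mean of 2.14 CPM. krt5, a keratin gene of basal epithelium, went from 15.3 and 18 to 0.789 and 0.906 CPM. Separation of the days was a condition of the choice, so it is not a further result for these genes. timp2b, which encodes an inhibitor of metalloproteases, went from 192 and 199 to 19.97 and 19 CPM, ptx3a, a soluble pattern recognition molecule, from 132 and 127 to 14.2 and 12.9 CPM, and has1, a hyaluronan synthase, from 30.6 and 28.4 to 3.5 and 2.92 CPM. These 3 genes were still above the 0 dpci level, by 0.54, 0.76 and 1.6 on the log2 scale. lipg, an endothelial lipase, went from 28.6 and 25.4 to 2.37 and 1.66 CPM, and adamtsl7, of the ADAMTS-like family of secreted matrix proteins, from 23.2 and 20.4 to 1.08 and 1.01 CPM. The granulin genes grn1 (47.1 and 49.1, then 2.51 and 4.83 CPM) and grn2 (13.3 and 13, then 0.887 and 1.81 CPM), and the chemokine gene ccl34a.3 (15.4 and 13.1, then 1.33 and 1.16 CPM), belong to families with close copies, and how reads mapping to several copies were counted is not stated, so their values are uncertain. jac2 went from 14.4 and 12.7 to 0.493 and 0.201 CPM.

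The 12 largest increases under the same rule were smaller, with log2 fold changes from 1.66 to 2.76, and several of them concerned fuel use and muscle. zbtb16b, a zinc finger transcription factor, was at 5.25 and 4.43 CPM at 7 dpci and 33 and 33.2 CPM at 21 dpci, a 6.78-fold increase to a level above that at 0 dpci (8.51 CPM). pdk2a, whose product limits the entry of pyruvate into mitochondria by phosphorylating pyruvate dehydrogenase, was at 155 and 146 CPM at 7 dpci and 515 and 542 CPM at 21 dpci, also above the 0 dpci mean of 108 CPM. Uninjured wild types had 319 and 336 CPM of pdk2a. ucp3, a mitochondrial uncoupling protein gene, went from 5.15 and 5.44 to 20.5 and 21.2 CPM. pparab, a nuclear receptor that activates fatty acid oxidation genes, went from 5.56 and 7.22 to 24.6 and 20.3 CPM, and mlycd, whose product removes the malonyl-CoA that blocks fatty acid import, from 4.27 and 3.92 to 12.4 and 13.5 CPM. lmod2a, a leiomodin that elongates actin filaments of the sarcomere, went from 40.9 and 39.6 to 142 and 145 CPM. By the rule of choice, the samples of the days were apart in each of these genes. The others were klhl24b (14.2 and 13.4, then 64.4 and 60.7 CPM) and klhl30 (4.43 and 5.95, then 17.5 and 16.5 CPM), both of the kelch-like family of ubiquitin ligase adaptors, the kinase gene map3k15 (17.6 and 18.2, then 66.8 and 66.3 CPM), mpped2 (36.2 and 34.7, then 119 and 118 CPM), the cell adhesion gene mdga1 (3.76 and 3.8, then 12.4 and 12.4 CPM) and the cilium gene hydin (4.43 and 2.66, then 12.6 and 14 CPM).

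**Figure D2:**
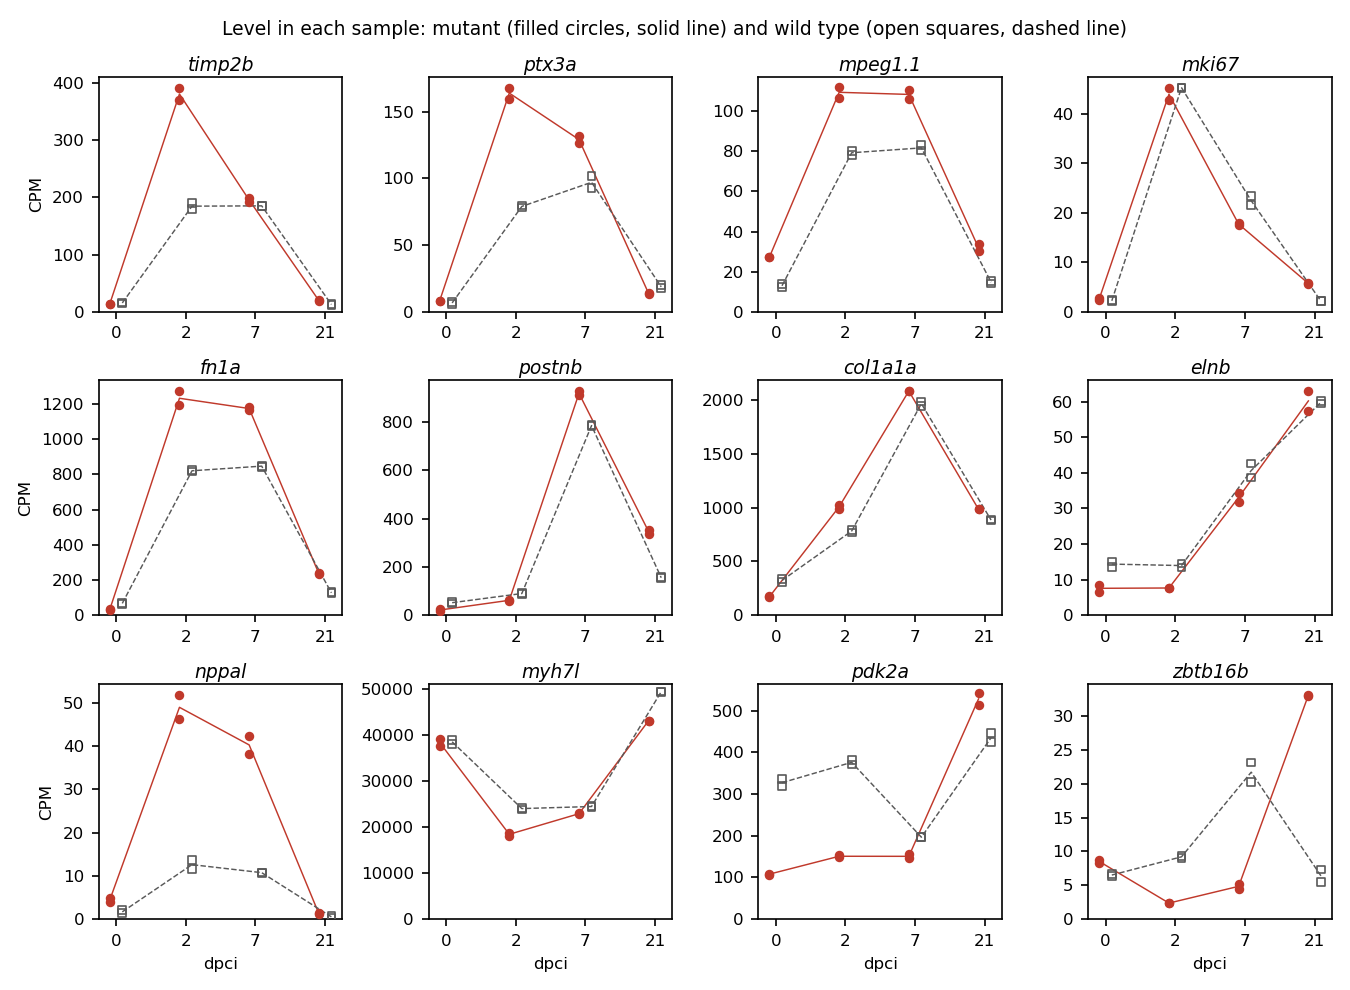
Levels of 12 genes in all 16 samples (vertical axis, CPM, starting at 0; horizontal axis, 0, 2, 7 and 21 dpci, evenly spaced). Filled circles and solid lines are mutant samples and their means, and open squares and dashed lines are wild-type samples and their means. In mutants timp2b, ptx3a, mpeg1.1, mki67, fn1a, postnb, col1a1a and nppal declined from 7 to 21 dpci, whereas elnb, myh7l, pdk2a and zbtb16b rose.

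Macrophage genes declined almost as a block. Of the 46 macrophage genes tested, 43 were downregulated, 2 were upregulated and 1 was not called, and their median log2 fold change was -1.6, against 0.0187 over all genes tested. mpeg1.1, which encodes the pore-forming protein perforin-2, was at 111 and 106 CPM at 7 dpci and 30.1 and 33.7 CPM at 21 dpci (log2 fold change -1.77 ± 0.0599, SE). csf1ra, a receptor for macrophage growth factors, went from 92 and 87.3 to 40.4 and 40.4 CPM, the scavenger receptor gene marco from 118 and 121 to 44.3 and 44.5 CPM, and spi1b, a transcription factor of myeloid cells, from 52.8 and 47.3 to 14.2 and 13.4 CPM. mpeg1.1 and spi1b were above 0 dpci by 0.23 and 0.47 on the log2 scale, under the fold change threshold, whereas csf1ra and marco remained above the uninjured level by 0.94 and 0.9 on the log2 scale. Over the whole list, 24 genes were above the 0 dpci level. The upregulated members were glula (1.41), which encodes glutamine synthetase, and timd4 (0.56), a phosphatidylserine receptor, of which timd4 lost its call with DESeq2, with library totals alone and without 1 sample in 3 of 4 cases. The summed level of the list was 3533 and 3517 CPM at 7 dpci and 1459 and 1521 CPM at 21 dpci.

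Complement and lysosomal genes followed the same direction. Of 16 complement genes, 13 were downregulated, or 81.2% against 18.2% over all genes (median log2 fold change -1.48). The central component gene c3a.1 went from 44.8 and 46.5 to 7.15 and 7.5 CPM, below the 0 dpci level (log2 fold change -0.63), and the initiator subunit c1qb from 82.2 and 83.8 to 22.5 and 21.9 CPM. The terminal component gene c6 was the most abundant of those named here and went from 1159 and 1158 to 630.4 and 637 CPM. cfd, a protease of the alternative pathway, was at 112 and 117, then 133 and 131 CPM and was not called. Of 53 lysosomal genes, 27 fell and 2 rose, or 50.9% and 3.77% against 18.2% and 13.6% over all genes, with a median of -0.57. The cathepsin genes ctss2.1 (131 and 136, then 27.2 and 26.6 CPM) and ctsz (102 and 98.8, then 23.7 and 25.6 CPM) and the protease gene lgmn (341 and 327, then 146 and 139 CPM) were among them, and the latter pair was not called against 0 dpci.

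Neutrophil and lymphocyte lists also declined. Of 24 genes of neutrophils and the NADPH oxidase, 14 were downregulated, with a median of -1.16. The calls included oxidase subunits, which macrophages also express, such as cybb (74.1 and 70.32, then 22.7 and 23.9 CPM). The defining neutrophil gene mpx, a myeloperoxidase, was at 14.1 and 14.1, then 8.92 and 11.7 CPM with a log2 fold change of -0.45 that was not called, although it was called with library totals alone (-0.65) and without 1 of the 21 dpci samples (-0.65). lyz, a lysozyme gene, was at 0.515 and 1.01, then 0.493 and 0.604 CPM, with overlapping days. Of 30 lymphocyte genes, 13 fell, or 43.3% against 18.2% over all genes (median -0.6). The B cell receptor component gene cd79a went from 3.55 and 3.99 to 0.444 and 0.302 CPM and the co-receptor gene cd4-1 from 7.05 and 6.01 to 1.38 and 1.76 CPM, whereas the T cell kinase gene lck was at 1.54 and 1.84, then 1.43 and 1.26 CPM and was not called.

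Of 50 genes of cytokines and the NF-kB pathway, 31 were downregulated, 18 were not called and 1, the receptor gene il11ra (0.61, and 0.41 and not called with library totals alone), was upregulated (median -1.002). The cytokine gene il1b was at 21.5 and 25.4 CPM at 7 dpci and 5.82 and 6.29 CPM at 21 dpci and remained above the 0 dpci mean of 3.12 CPM. il11a, a cytokine of the interleukin-6 family, went from 14.5 and 14.4 to 1.63 and 1.91 CPM, below the 0 dpci mean of 4.39 CPM. il6 was at 1.08 CPM in both 7 dpci samples and at 0 and 0.151 CPM at 21 dpci, where neither sample exceeded 3 counts, so it was at least 7.22-fold lower. acod1, which makes the immunometabolite itaconate, went from 21.5 and 22.3 to 6.9 and 8.66 CPM and was not called against 0 dpci (7.05 CPM). The exception among the inhibitors of cytokine signalling was socs3a, which was at 902 and 908 CPM at 7 dpci and 897 and 919.7 CPM at 21 dpci, with overlapping samples, a log2 fold change of 0.0054 and a level 2.1 above 0 dpci on the log2 scale. Its paralog socs3b fell from 277 and 285 to 82.4 and 87.7 CPM. The transcription factor genes rela (-0.031), nfkb1 (-0.026) and relb (-0.021) were not called.

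Of 35 chemokine and receptor genes, 19 fell and 1 rose (median -0.84). ccl34a.4 went from 106 and 106 to 17.6 and 18 CPM and cxcl8a, a ligand that attracts neutrophils, from 9.52 and 10.9 to 0.838 and 1.51 CPM. cxcl18b (75.4 and 76.7, then 49 and 44.4 CPM) and the stromal chemokine gene cxcl12a (96.1 and 87.9, then 51.6 and 51.7 CPM) were lower at 21 dpci but above the 0 dpci level, by 1.48 and 0.52 on the log2 scale. Interferon-stimulated genes moved less. Of 47, 17 were downregulated, with a median of -0.37, and 25 were called lower with library totals alone. mxa, an antiviral GTPase gene, went from 10.8 and 11.65 to 3.9 and 3.32 CPM, isg15, a ubiquitin-like modifier, from 11.4 and 11.2 to 6.71 and 6.9 CPM, and the transcription factor gene stat1b fell (log2 fold change -0.65), whereas rsad2 was at 6.13 and 5.63, then 4.98 and 5.23 CPM and was not called. Of 26 genes of MHC molecules and antigen processing, 11 fell (median -0.32). The class II gene mhc2a went from 136 and 126 to 56.9 and 62.2 CPM and its chaperone gene cd74a from 744 and 710.4 to 443 and 464 CPM. b2m, the light chain of class I, was at 709 and 719, then 713 and 743 CPM, with overlapping days.

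Cell division genes fell in nearly every member, and many stayed above the uninjured level. Of 42 genes of mitosis, 40 were downregulated and ccnb2 (-0.67) and espl1 (-0.42) were not called, with a median of -1.45. espl1 was called with library totals alone (-0.62). mki67, a marker of cycling cells, was at 17.9 and 17.5 CPM at 7 dpci and 5.77 and 5.64 CPM at 21 dpci, a 3.1-fold decrease (log2 fold change -1.63 ± 0.118, SE). The mutant mean at 0 dpci was 2.59 CPM, and the 21 dpci level was above it by 1.14 on the log2 scale. The topoisomerase gene top2a went from 22 and 22 to 6.9 and 5.94 CPM, the cyclin gene ccna2 from 5.92 and 6.77 to 1.82 and 1.96 CPM and the kinase gene cdk1 from 7.62 and 10.9 to 2.37 and 2.92 CPM. Each of these had samples at 21 dpci below both samples at 7 dpci and above the 0 dpci means of 1.95, 0.552 and 0.603 CPM. Against 0 dpci, 28 of the 42 genes were higher and 1, kif23, a kinesin of cytokinesis, was lower (log2 fold change -1.4). Of 39 DNA replication genes, 25 fell (median -0.87), and 21 were above the 0 dpci level. The helicase subunit gene mcm2 went from 31.1 and 34 to 8.83 and 10.2 CPM, the ribonucleotide reductase gene rrm2 from 16.2 and 16.4 to 6.26 and 8.15 CPM, and the sliding clamp gene pcna from 63.4 and 65.4 to 32.5 and 35.19 CPM.

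**Figure D3:**
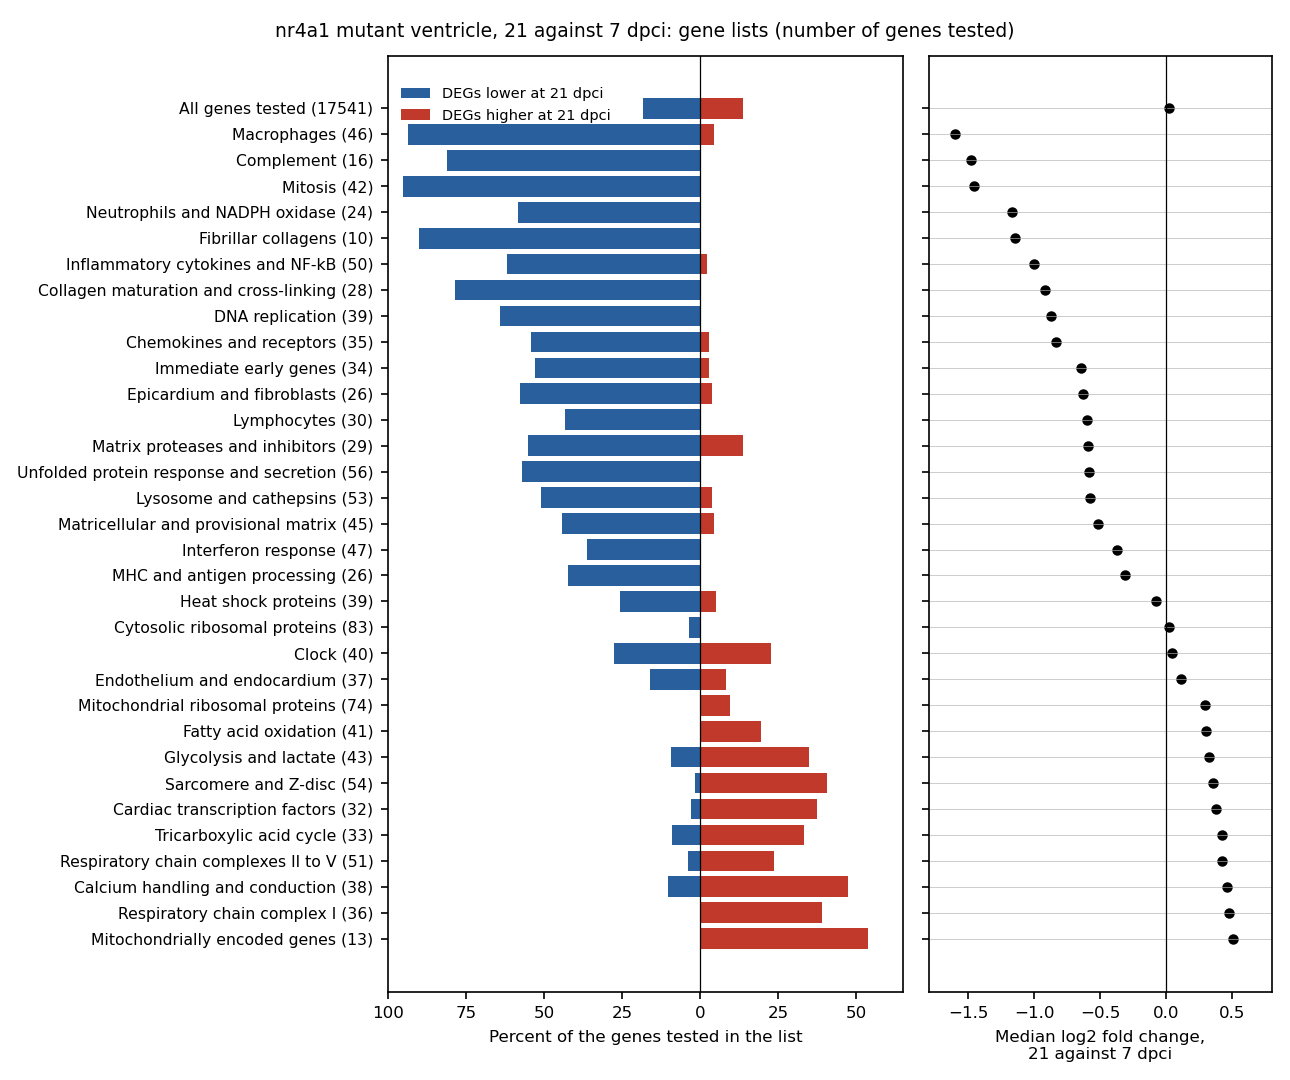
Gene lists in the mutant comparison of 21 against 7 dpci, with the number of genes tested in parentheses. Bars give the percent of a list's genes that were downregulated (blue, to the left) and upregulated (red, to the right), and points give the median log2 fold change. For all genes tested the bars reach 18.2% and 13.6%, whereas 40 of 42 genes of mitosis and 43 of 46 macrophage genes were downregulated and the lists at the foot, of muscle and mitochondria, hold more upregulated than downregulated genes.

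The collagen genes of the scar were lower at 21 than at 7 dpci and still far above the level of uninjured mutants. Of 10 fibrillar collagen genes, 9 were downregulated (median -1.14), and the same 9 were above the 0 dpci level. col1a1a, a chain of type I collagen, was at 2082 and 2077 CPM at 7 dpci and 983 and 985 CPM at 21 dpci (log2 fold change -1.08 ± 0.0318, SE), against 173 CPM in uninjured mutants. Wild types had 340 and 308 CPM of col1a1a uninjured and 889 and 879 CPM at 21 dpci. Uninjured wild types also had more col5a1 (166 and 163 CPM) than uninjured mutants (78 and 74.7 CPM). col1a2 (2008 and 2071, then 917 and 905 CPM) and the type V chain gene col5a1 (679 and 690.4, then 321 and 319 CPM) changed to a like extent. The type XI chain genes changed more: col11a1a went from 32.4 and 34.1 to 3.45 and 4.03 CPM and col11a1b from 187 and 194 to 60.2 and 55.5 CPM. In uninjured mutants these were at 0.217 and 0.361 CPM. col2a1b, of cartilage collagen, was at 21.5 and 22.3, then 23.8 and 22.7 CPM and was not called. Collagen XII, which links fibrils to other matrix, fell as well, with col12a1a at 903 and 915 CPM at 7 dpci and 206 and 215 CPM at 21 dpci and col12a1b at 295 and 306 CPM at 7 dpci and 61.9 and 59.5 CPM at 21 dpci. Their 0 dpci means were 31.8 and 1.2 CPM.

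Of 45 genes of matricellular and provisional matrix proteins, 20 fell and 2 rose (median -0.52), while 27 were above the 0 dpci level. fn1a, 1 of the fibronectin genes, was at 1185 and 1164 CPM at 7 dpci and 241 and 234 CPM at 21 dpci, a 4.95-fold decrease, and fn1b at 2932 and 2889 CPM at 7 dpci and 1280.1 and 1265 CPM at 21 dpci. postnb, which encodes periostin of activated fibroblasts, was at 911 and 927 CPM at 7 dpci and 354 and 339 CPM at 21 dpci, against 21.9 CPM at 0 dpci. For all 3 genes both samples at 21 dpci lay between the 0 dpci mean and the samples at 7 dpci, the 0 dpci means of fn1a and fn1b being 32.8 and 356 CPM. Uninjured wild types had 66.5 and 69.6 CPM of fn1a, 579 and 576 CPM of fn1b and 49.2 and 55.8 CPM of postnb. The tenascin gene tnc went from 32.9 and 32.8 to 14.7 and 14 CPM and the collagen-binding gene sparc from 566 and 577 to 331 and 327 CPM. The proteoglycan gene dcn was at 628 and 635, then 490.2 and 508 CPM, with a log2 fold change of -0.34 that was not called (-0.54 and called with library totals alone). The upregulated members were elnb, an elastin gene abundant in the bulbus arteriosus, which went from 34.4 and 31.8 to 63.1 and 57.3 CPM, and cilp, a secreted matrix protein gene, from 36.9 and 38.4 to 66.3 and 65.2 CPM. Both were above the 0 dpci level, by 2.99 and 1.67 on the log2 scale. The smooth muscle genes myh11a (96.8 and 93.6, then 67.5 and 63.4 CPM) and tagln (130.1 and 144, then 63.4 and 57.2 CPM), which the bulbus also expresses, moved in the other direction from elnb, and the call of myh11a was lost without 1 of the 21 dpci samples (log2 fold change -0.50).

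**Figure D4:**
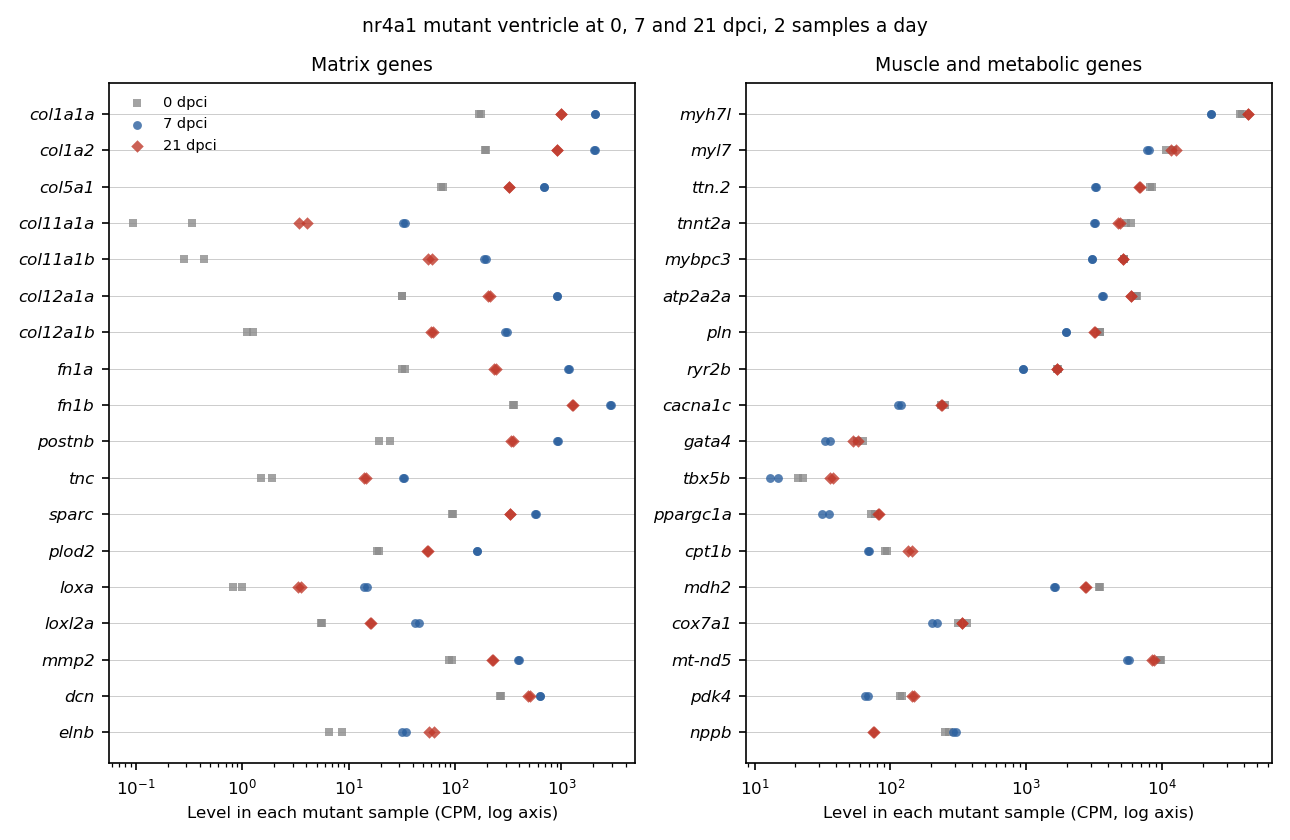
Levels of 18 matrix genes (left) and 18 muscle and metabolic genes (right) in the mutant samples at 0 dpci (grey squares), 7 dpci (blue circles) and 21 dpci (red diamonds), 2 samples a day, on a log axis in CPM. The 21 dpci samples of the matrix genes lay between those of 0 and 7 dpci, except for elnb, where they were the highest. Among the muscle genes myh7l, ttn.2 and atp2a2a lay near the 0 dpci samples by 21 dpci, whereas nppb had fallen below them.

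Enzymes that modify and cross-link collagen declined as well. Of 28 genes, 22 were downregulated (median -0.92), and the count against 0 dpci was 10 higher and 3 lower. The lysyl hydroxylase gene plod2 was at 161 and 160.1 CPM at 7 dpci and 54.9 and 55.5 CPM at 21 dpci and the lysyl oxidase gene loxa went from 15 and 14.1 to 3.6 and 3.37 CPM. loxl1 (139 and 136, then 94.8 and 91.1 CPM), loxl2a (46 and 41.9, then 15.8 and 16.3 CPM) and loxl2b (77 and 78.5, then 38.8 and 37.4 CPM), of the same oxidase family, also fell. The collagen chaperone gene serpinh1b was at 95.6 and 95.4 CPM at 7 dpci and 50.2 and 49.9 CPM at 21 dpci, close to the 0 dpci mean of 54.8 CPM. p4ha1b, a prolyl hydroxylase gene, was at 68 and 62.3, then 51.4 and 52.9 CPM and was called with library totals alone (-0.52) but not with TMM (-0.33).

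Of 29 genes of matrix proteases and their inhibitors, 16 fell and 4 rose, or 55.2% and 13.8% against 18.2% and 13.6% over all genes. The median was -0.59. The gelatinase gene mmp9 went from 42.5 and 39 to 9.22 and 7.6 CPM and the membrane protease gene adam8a from 126 and 117 to 14.9 and 14.2 CPM. mmp2 (396 and 393, then 229 and 221 CPM) and mmp14b (122 and 121, then 68.8 and 69.3 CPM) fell less and remained above the 0 dpci level. The stromelysin genes mmp11a (0.721 and 1.2, then 2.51 and 2.47 CPM) and mmp11b (0.412 and 0.19, then 1.04 and 1.46 CPM) rose at low levels, and the call of mmp11a was lost without 1 of the 7 dpci samples (log2 fold change 1.04). Of 19 basement membrane genes, 3 rose and 5 fell, or 15.8% and 26.3% against 13.6% and 18.2% over all genes. With library totals alone 1 rose and 6 fell. col4a1 went from 188 and 192 to 269 and 272 CPM and lama5 from 186 and 182 to 266 and 265 CPM, both just past the fold change threshold, and neither was called with DESeq2's size factors or its test.

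Of 25 genes of the TGF-beta family and its receptors, 3 rose and 5 fell, or 12% and 20% against 13.6% and 18.2% over all genes, and the median of -0.064 changed sign in 1 of 11 other settings. The activin subunit gene inhbaa went from 10.6 and 11 to 3.99 and 3.27 CPM, tgfb1b from 33.6 and 36.3 to 17.8 and 17.5 CPM and the receptor gene tgfbr2a from 53.7 and 58.8 to 20.9 and 19.6 CPM, whereas smad3b, a transducer of the pathway, rose from 16.2 and 17.7 to 37.1 and 38.5 CPM.

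Of 26 genes of epicardium and fibroblasts, 15 fell, 1 rose and 10 were not called (median -0.63). wt1b, a transcription factor of activated epicardium, was at 30.2 and 33.1 CPM at 7 dpci and 5.18 and 5.49 CPM at 21 dpci. aldh1a2, which makes retinoic acid, was at 381 and 382 CPM at 7 dpci and 76.5 and 77.5 CPM at 21 dpci, below the 0 dpci mean of 148 CPM, and clu, which encodes the secreted chaperone clusterin, was at 1298 and 1273 CPM at 7 dpci and 187 and 181 CPM at 21 dpci. The lineage markers tcf21 (58 and 50.3, then 47.6 and 52.8 CPM) and tbx18 (57.1 and 53.4, then 40.1 and 42.4 CPM) were not called, and the days overlapped for tcf21. tbx18 was called with library totals alone (-0.62). The epithelial keratin gene krt8 went from 2826 and 2829.7 to 1873 and 1924 CPM. Of 37 endothelial and endocardial genes, 3 rose and 6 fell, or 8.11% and 16.2% against 13.6% and 18.2% over all genes. Their median of 0.11 changed sign in 1 of 11 settings. The vascular receptor gene kdrl (252 and 252, then 334 and 334 CPM) and the junction gene cdh5 (255 and 248, then 317 and 310.4 CPM) were not called, the tight junction genes cldn5a (19.4 and 18, then 4.34 and 4.98 CPM) and cldn5b (36.09 and 34.7, then 13 and 11.4 CPM) fell, and the Notch receptor gene notch1b rose from 239 and 239.9 to 371 and 379 CPM, though not with library totals alone (0.45). flt1, a receptor for vascular growth factors, fell from 86.2 and 84.2 to 56.6 and 58.4 CPM and lay below the 0 dpci mean of 167 CPM.

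Genes of the unfolded protein response and the secretory pathway fell together. Of 56 tested, 32 were downregulated (median -0.58), with 22 of the 32 not called against 0 dpci and 7 below it. The endoplasmic reticulum chaperone gene hspa5 was at 374 and 381 CPM at 7 dpci and 109 and 111 CPM at 21 dpci, under the 0 dpci mean of 187 CPM. hsp90b1 (265 and 254, then 99.2 and 98.4 CPM), hyou1 (64.7 and 61.5, then 21.2 and 20.9 CPM) and manf (22.2 and 22.3, then 7 and 7.25 CPM) fell too, and the transcription factor gene xbp1 went from 265 and 265 to 136 and 142 CPM. Heat shock protein genes gave 2 upregulated and 10 downregulated of 39, or 5.13% and 25.6% against 13.6% and 18.2% over all genes (median -0.082). hsp90aa1.1 was at 194 and 191 CPM at 7 dpci and 193 and 195 CPM at 21 dpci, with overlapping days, under the 0 dpci mean of 498 CPM. Cytosolic ribosomal protein genes held few calls, with 3 of 83 downregulated and a median of 0.022, which changed sign in 4 of 11 settings.

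Of 54 sarcomere and Z-disc genes, 22 were upregulated, 1 was downregulated and 31 were not called, with a median of 0.36, and with library totals alone 10 were higher and 3 lower. myh7l, a ventricular myosin heavy chain gene and 1 of the most abundant transcripts, was at 22811 and 22964 CPM at 7 dpci and 43129.8 and 43104 CPM at 21 dpci (log2 fold change 0.91 ± 0.0197, SE), against 38362 CPM at 0 dpci, against which it was not called. Of 7 atrial genes 4 were upregulated, or 57.1% against 13.6% over all genes. Their log2 fold changes were 0.78 (gja5a), 0.51 (myh6), 0.63 (myl7) and 0.94 (tbx5a), and 2 of them were called also with library totals alone. The summed level of the 7 genes was 10626 and 10864 CPM at 7 dpci and 15377 and 14371 CPM at 21 dpci. myl7 made up most of that sum, and myh6, which marks the atrium, went from 139 and 139 to 193 and 204 CPM. myh6 was not called with DESeq2's size factors or its test (0.49 in both) or with library totals alone (0.31). Without replicate 2 of 21 dpci its log2 fold change was 0.47. The part of atrial tissue in the contractile result was not tested. The titin gene ttn.2 was at 3256 and 3232 CPM at 7 dpci and 6803 and 6876 CPM at 21 dpci and the myosin-binding gene mybpc3 went from 3079 and 3064 to 5156 and 5142 CPM. tnnt2a, myl7 and actc1a (9352 and 9213, then 13287 and 13809.6 CPM) passed the fold change threshold with TMM and not with library totals alone, where their log2 fold changes were 0.39, 0.43 and 0.35. The downregulated member was myh7 (also known as vmhc), another ventricular myosin heavy chain gene, at 906 and 909 CPM at 7 dpci and 404 and 401 CPM at 21 dpci, still above the 0 dpci mean of 133 CPM. These myosin genes moved in opposite directions. They are close relatives, and how reads that fit both were counted is not stated.

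Genes of calcium handling and conduction gave 18 upregulated and 4 downregulated of 38 (median 0.46), and 9 and 4 with library totals alone. The calcium pump gene atp2a2a was at 3669.7 and 3650.3 CPM at 7 dpci and 5942 and 5910.5 CPM at 21 dpci, its inhibitor gene pln went from 1977 and 1956 to 3227 and 3165 CPM, and the release channel gene ryr2b from 942 and 950.1 to 1696 and 1692 CPM. The calcium channel gene cacna1c was at 121 and 115 CPM at 7 dpci and 239 and 234 CPM at 21 dpci, the sodium channel gene scn5lab went from 50.8 and 57.2 to 111 and 119.5 CPM, and the inward rectifier gene kcnj12a from 7.36 and 7.85 to 20.3 and 19.4 CPM. Of these 6 genes only kcnj12a was called against 0 dpci (0.53), and atp2a2a was not called with library totals alone (0.50). The paralog atp2a2b fell from 117 and 108 to 53.9 and 59.5 CPM and the connexin gene cx43.4 from 23.8 and 24.4 to 8.09 and 8.05 CPM. hcn4, a pacemaker channel gene, was at 11.3 and 7.53, then 14.2 and 14.5 CPM, with a log2 fold change of 0.58 that became 0.33 without 1 of the 7 dpci samples and was then not called, nor was it with library totals alone (0.39). Of 32 genes of cardiac transcription factors, 12 rose and 1 fell (median 0.38), and 6 and 3 with library totals alone. tbx5b went from 13 and 14.8 to 36 and 37.7 CPM, gata4 from 33.2 and 36 to 52.8 and 57.8 CPM and ppargc1a, a coactivator of mitochondrial biogenesis, from 31.3 and 35.4 to 82.3 and 81.7 CPM. gata4 was not called with library totals alone (0.48). runx1, which border zone cardiomyocytes and blood cells express after injury, fell from 13.7 and 15.4 to 5.03 and 5.08 CPM.

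Several genes of cardiac or general stress lay below the uninjured level at 21 dpci. nppb, a natriuretic peptide gene, was at 291 and 303 CPM at 7 dpci and 75.7 and 74.9 CPM at 21 dpci, against 262 CPM at 0 dpci (log2 fold change of 21 against 0 dpci -1.8). atf3, a stress-induced transcription factor, was at 47.9 and 45 CPM at 7 dpci and 16.3 and 16.8 CPM at 21 dpci, against 122 CPM at 0 dpci. It was therefore below its 0 dpci level already at 7 dpci. That level was high beside uninjured wild types, which had 7.12 and 6.44 CPM of atf3. Together with nppal and ankrd1a, nppb and atf3 were lower at 21 dpci than at 0 or 7 dpci. For nppb, nppal and ankrd1a, too, the uninjured mutant samples lay above the uninjured wild-type ones. The wild types had 143 and 148 CPM of nppb, 1.33 and 2.02 CPM of nppal and 0.994 and 1.63 CPM of ankrd1a. nppa, another natriuretic peptide gene, was at 2558 and 2584, then 2269 and 2263 CPM with a log2 fold change of -0.18 that was not called. On both days it lay below its 0 dpci mean of 4213 CPM. Over the list of 24 stress and embryonic genes, 4 rose and 8 fell, or 16.7% and 33.3% against 13.6% and 18.2% over all genes. In the list 9 genes were below the 0 dpci level and 5 above.

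Some of the mitochondrial and fuel genes rose, and their number depended on the scaling. On the TMM scale, 8 of 41 genes of fatty acid oxidation, 11 of 33 of the tricarboxylic acid cycle, 14 of 36 of respiratory complex I, 12 of 51 of complexes II to V and 7 of 13 mitochondrially encoded genes were upregulated. In that order these were 19.5%, 33.3%, 38.9%, 23.5% and 53.8% of the lists, against 13.6% over all genes. The respective medians were 0.3, 0.42, 0.47, 0.42 and 0.51. Of 74 genes of mitochondrial ribosomal proteins 7 were upregulated, or 9.46% against 13.6% over all genes, with a median of 0.29 and 1 gene called higher with library totals alone. In the other lists 5, 1, 2, 1 and 1 genes were called higher with library totals alone, and the medians kept their sign in all 11 other settings. cpt1b, which imports fatty acids into mitochondria, was at 68.5 and 69.2 CPM at 7 dpci and 136 and 144 CPM at 21 dpci. The malate dehydrogenase gene mdh2 went from 1623 and 1609.7 to 2699 and 2748 CPM, the cytochrome oxidase subunit gene cox7a1 from 202 and 221 to 339.9 and 337 CPM and the mitochondrially encoded mt-nd5 from 5699.5 and 5516 to 8691 and 8411 CPM. The subunit gene cox6a1 moved the other way, from 58.5 and 59.5 to 28.3 and 30.4 CPM. With library totals alone cox7a1 (0.48) and mt-nd5 (0.41) were not called.

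Of 43 glycolysis genes, 15 rose and 4 fell (median 0.32), and 7 and 5 with library totals alone. gapdh, the most abundant of those named here, went from 8617 and 8645 to 13274 and 13660.1 CPM (0.44 and not called with library totals alone) and its paralog gapdhs from 440.4 and 437 to 201 and 213 CPM. hk2, the hexokinase isoform induced in growing cells, was at 28.9 and 29.7 CPM at 7 dpci and 5.87 and 5.49 CPM at 21 dpci, and pfkfb3, an activator of glycolytic flux, was at 29.8 and 36.5 CPM at 7 dpci and 10.2 and 9.01 CPM at 21 dpci. The pyruvate dehydrogenase kinase gene pdk4 went from 68.3 and 64.6 to 148 and 145 CPM, in the direction of pdk2a, and the glucose transporter gene slc2a1a from 25 and 25.5 to 53.5 and 53.1 CPM. Of 25 genes of the glucocorticoid and stress hormone response, 10 rose and 5 fell, or 40% and 20% against 13.6% and 18.2% over all genes. Besides zbtb16b those that rose included foxo1a (35.16 and 32.7, then 73.5 and 72.7 CPM) and the muscle ubiquitin ligase gene fbxo32 (24 and 21.4, then 45 and 43.6 CPM). fkbp5, a chaperone of the glucocorticoid receptor, was at 157 and 159, then 137 and 152 CPM and was not called, at a level 3.35 above 0 dpci on the log2 scale.

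Of 34 immediate early genes, 18 fell and 1 rose (median -0.65). junbb went from 429 and 431 to 230.1 and 238 CPM, fosl2 from 72.9 and 73 to 18.9 and 17.9 CPM and fosl1a from 36.9 and 38.9 to 12.7 and 13.8 CPM, all subunits of the AP-1 transcription factor. fosab was at 301 and 309 CPM at 7 dpci and 304 and 304 CPM at 21 dpci, egr1 was at 362 and 371, then 391 and 393 CPM and btg2 at 494 and 495, then 577 and 578 CPM. None of these 3 was called, and all were above their 0 dpci level, by 2.35, 2.02 and 2.23 on the log2 scale. The upregulated member was fosb, which went from 6.74 and 8.17 to 13.6 and 14.3 CPM. Among secreted signals, the growth factor gene mdka was at 749.6 and 725 CPM at 7 dpci and 177 and 164 CPM at 21 dpci, hbegfb went from 16.3 and 15.4 to 3.4 and 2.77 CPM and lepb, a leptin gene that marks injured zebrafish heart, from 16.6 and 14.7 to 2.86 and 3.88 CPM. The transferrin gene tfa was at 357 and 351 CPM at 7 dpci and 100.1 and 107 CPM at 21 dpci, and the heme oxygenase gene hmox1a went from 78.2 and 85.6 to 28.5 and 30.3 CPM. tfa made up most of the summed level of the 9 liver and yolk genes, which was 376 and 372 CPM at 7 dpci and 112 and 119 CPM at 21 dpci.

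The 34 tested genes that the study names gave 6 upregulated and 17 downregulated (median -0.67), and 21 of them were above the 0 dpci level. Part of these genes were picked on the same samples, so their count is not independent evidence of a direction.

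How the mutant change compared with that of wild types was tested by the interaction of genotype and day. In wild types 3001 genes were higher (17.1%) and 3711 lower (21.2%) at 21 than at 7 dpci. Of the mutant DEGs, 1188 of the upregulated genes (49.9% of them, and 39.6% of the wild-type ones) and 2347 of the downregulated genes (73.6% and 63.2%) were called in the same direction in wild types, which share no sample with the mutants. The interaction was above 0, with the mutant change less negative or more positive, in 1518 genes (8.65%) and below 0 in 1245 (7.1%). With library totals alone these counts were 2373 and 826.

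The interaction counts of lists below stand beside 8.65% above and 7.1% below 0 over all genes tested. Of the 42 genes of mitosis, 29 had an interaction above 0 that passed both thresholds. The median log2 fold change of the 42 was -1.45 in mutants against -3.07 in wild types. mki67 went from means of 22.4 to 2.13 CPM in wild types, and its interaction was 1.75 ± 0.204 (SE, adjusted p = 1.53e-10, edgeR). For top2a and ccna2 the interaction was 1.96 and 2.21. Of the 39 genes of DNA replication 11 were above 0, and 28 did not pass the thresholds. Of the 47 interferon genes 25 were above 0 and 22 did not pass the thresholds, with mxa at 1.83 and stat1b at 1.25. Of the 46 macrophage genes 18 were above and 3 below, with mpeg1.1 at 0.7. Of the 50 genes of cytokines and the NF-kB pathway 15 were above and 2 below 0, and of the 35 chemokine and receptor genes 12 and 2. il1b (0.92), tnfb (1.62) and socs3a (1.13) were above 0. Matrix lists differed in direction. Of the 45 genes of matricellular and provisional matrix proteins 10 passed the thresholds above 0 and 6 below. Of the 29 genes of matrix proteases and their inhibitors 9 were above and 1 below, and of the 19 basement membrane genes 3 and 1. Of the 10 fibrillar collagen genes 2 were above and 0 below, and of 13 other collagen genes 2 were above and 2 below. The interaction was above 0 for postnb (0.93), fn1b (0.58), col11a1b (1.13) and col12a1b (0.82). For col1a1a (0.071), col1a2 (-0.023) and fn1a (0.42) it did not pass the thresholds.

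The collagen cross-linking genes gave the opposite sign in 11 of 28, with 3 above 0. loxl2a fell in mutants and was at 33.4 and 27.8 CPM in wild types (interaction -1.2), and the values for loxl1 and serpinh1b were -0.94 and -1.06. The stress genes nppb (-1.71), atf3 (-1.93) and ankrd1a (-2.04) had negative interactions, as did krt5 (-2.28, and -0.58 and not called without 1 wild-type 21 dpci sample), clu (-0.85), hspa5 (-0.6, and -0.46 with library totals alone), cxcl12a (-1.04) and flt1 (-0.89). In wild types nppb was at 251 CPM at 7 dpci and 208 CPM at 21 dpci. ankrd1a and krt5 belong to the 12 largest decreases, chosen by the mutant change that is itself 1 term of the interaction. Of those 12, grn1 and ptx3a also had interactions below 0 that passed the thresholds. For jac2, lipg, ccl34a.3, has1 and timp2b the interaction was above 0, and for nppal, adamtsl7 and grn2 it did not pass the thresholds. That of jac2 (4.94 ± 1.01, SE) is uncertain in size, because its 21 dpci levels were near 0. Wild types had 0 and 0.0597 CPM there, and mutants 10 and 4 counts. The 12 largest increases were likewise chosen by the mutant change that is itself 1 term of the interaction. Among them the values were above 0 for zbtb16b (4.54), map3k15 (2.32), ucp3 (2.05), lmod2a (1.997) and klhl24b (1.73). mdga1, mpped2, pparab, hydin and pdk2a also had interactions above 0 that passed the thresholds. Those of klhl30 and mlycd did not pass them. For zbtb16b the wild-type means went the other way, from 21.7 to 6.39 CPM, and for lmod2a they were 96.7 and 86.4 CPM. The abundant muscle genes myh7l (-0.1), ttn.2 (-0.02) and atp2a2a (-0.15) did not pass the thresholds. Among 54 sarcomere and Z-disc genes 4 interactions passed them above 0 and 12 below. Calcium handling gave 5 and 5 of 38, glycolysis 4 and 9 of 43, and mitochondrial ribosomal proteins 0 and 17 of 74. Respiratory complex I gave 0 and 3 of 36, and complexes II to V 0 and 2 of 51. In wild types 36 and 44 genes of these complexes were upregulated, against 14 and 12 in mutants.

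Many clock genes differed between genotypes in their change. In mutants 9 of 40 rose and 11 fell (4 and 14 with library totals alone), or 22.5% and 27.5% against 13.6% and 18.2% over all genes. The median of 0.045 changed sign in 2 of 11 settings. per1a, a repressor of the circadian clock, was at 20.2 and 21.3 CPM at 7 dpci and 12.5 and 13.2 CPM at 21 dpci, while wild types had 1.04 CPM at 7 dpci and 51.7 CPM at 21 dpci (interaction -6.35). The repressor gene nr1d1 was at 30.7 and 31.4, then 22.1 and 25.5 CPM in mutants against 3.35 and 81 CPM in wild types (interaction -4.97), and the clock genes rorcb (4.59) and arntl1b (3.2) had interactions of the other sign. In all, 33 of the 40 genes had an interaction past the thresholds, 11 above and 22 below 0. The heat shock gene hsp90aa1.1 (128 and 1098 CPM in wild types, interaction -3.09) and 22 other genes of that list also had negative interactions. The part of the clock, and of the hour of collection, in any genotype difference given here was not tested. lpl (-1.74), hcn4 (-2.29), akap6 (4.43) and fosb (2.65) were other genes with large interactions.

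**Figure D5:**
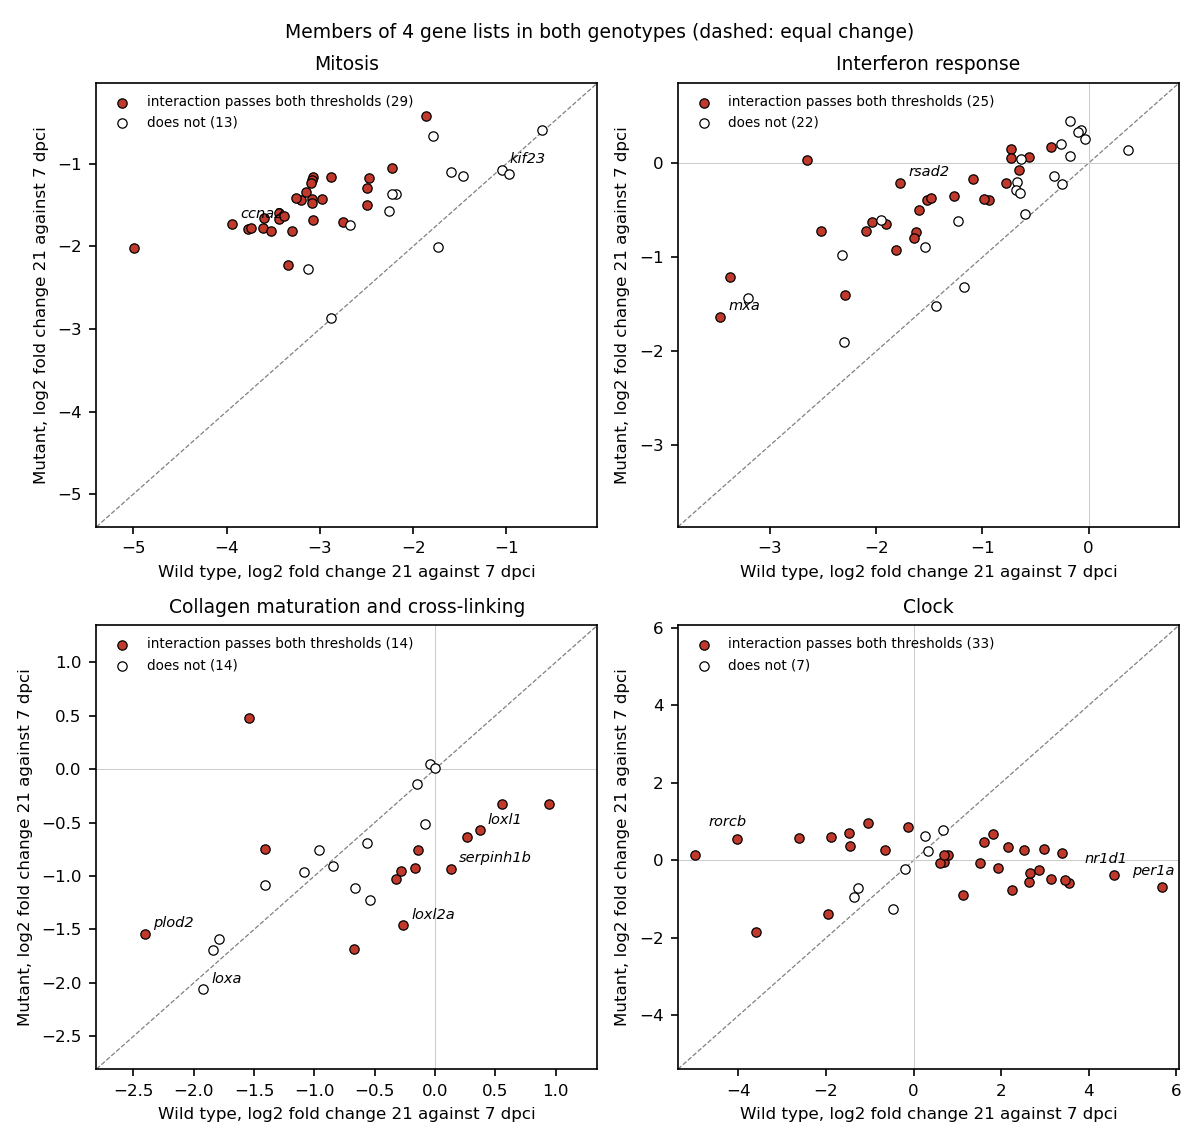
Log2 fold change of 21 against 7 dpci in wild types (horizontal axis) and mutants (vertical axis) for the members of 4 gene lists. Filled points have an interaction of genotype and day past both thresholds, open points do not, and the dashed line marks equal change. The filled points of mitosis (29) and interferon genes (25) lie above the line, 11 collagen maturation genes lie below it, and clock genes spread further along the wild-type axis than along the mutant axis.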

How the data were processed

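Ventricle RNA of mutant and wild-type fish was sequenced. The deposited values are raw read counts per gene for 31351 genes, which the authors made, per the submitters' processing notes, with FastQC, STAR and featureCounts on GRCz11 (danRer11). Versions, strand and the treatment of multi-mapping reads are not given in the sources used here.

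All 16 samples (8 conditions with 2 each) were fitted in edgeR 4.0.16 (limma 3.58.1, R 4.3.3) with TMM scaling and the quasi-likelihood test. The 17541 genes that reached 10 counts in 2 or more of the 4 mutant samples at 7 and 21 dpci were kept. A DEG had an adjusted p (Benjamini-Hochberg over these genes) below 0.05 with a log2 fold change beyond 0.5 in either direction, which the study also used. Its methods name DESeq2 with a batch term that no label gives, and DESeq2 1.42.0 was run as an alternative. The interaction tested the mutant against the wild-type change. Fits were tested on simulated data.

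Named genes were the 12 DEGs with the largest change in each direction whose samples did not overlap and whose mean reached 10 CPM at 1 of the days, members of 51 lists, genes the study names, and list members with an interaction past the thresholds. Clone names were passed over. Members and lists were chosen with earlier results of these data known. Alternatives were the scaling, filter, fold change rule, samples fitted, replicate block and each sample left out. A search of promoters was not run.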

Additional observations from a re-analysis of the deposited data

Results flagged for a closer look

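Of the genes whose interaction of genotype and day is given above with its value, 39 passed both thresholds, which was the condition for listing them here. In these the change from 7 to 21 dpci differed between genotypes by the edgeR quasi-likelihood test of the difference itself. The thresholds were an adjusted p under 0.05 and an absolute value over 0.5 on the log2 scale. With 2 samples in each condition, single samples far from their group were not looked for. In all of them the 7 and 21 dpci samples of both genotypes entered the test.

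The interaction was 0.95 for nr4a1 itself. Among genes of dividing cells it was 1.75 for mki67, 1.96 for top2a and 2.21 for ccna2. Among matrix genes it was 0.926 for postnb, 1.13 for col11a1b, 0.818 for col12a1b and 0.576 for fn1b, and with the opposite sign -1.2 for loxl2a, -0.936 for loxl1 and -1.06 for serpinh1b. Among genes of immune cells and mediators it was 0.703 for mpeg1.1, 0.923 for il1b, 1.62 for tnfb, 1.13 for socs3a, 1.83 for mxa and 1.25 for stat1b, and -1.04 for the stromal gene cxcl12a.

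Values below 0 were also measured for clu (-0.852), krt5 (-2.28), ankrd1a (-2.04), nppb (-1.71), atf3 (-1.93), hspa5 (-0.604), flt1 (-0.886), lpl (-1.74) and hcn4 (-2.29). Values above 0 were measured for lmod2a (2), zbtb16b (4.54), klhl24b (1.73), ucp3 (2.05), map3k15 (2.32), fosb (2.65) and akap6 (4.43). The clock genes gave -6.35 for per1a, -4.97 for nr1d1, 4.59 for rorcb and 3.2 for arntl1b, and the heat shock gene hsp90aa1.1 gave -3.09.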

How the results depend on the processing

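The counts of upregulated and downregulated genes were 2382 and 3190, and those of interactions above and below 0 were 1518 and 1245. With library totals alone in place of TMM, 1147 genes were higher, and the interaction was above 0 in 2373 and below 0 in 826. With the fold change threshold inside the test (glmTreat), 1057 and 2087 genes were called and 571 and 508 interactions. Without a requirement on the fold change there were 4569 higher genes and 2538 interactions below 0. At an absolute log2 fold change over 1 there were 555 and 1679 genes, and 673 and 501 interactions. Leaving out each mutant sample in turn gave 2138 to 2182 higher and 2921 to 3035 lower genes, and leaving out each sample of either genotype gave 1302 to 1434 interactions above and 1127 to 1296 below 0. There the lone sample is assumed to vary like the other conditions. DESeq2 called 1919 and 3123 genes, and the interaction counts stayed within a factor of 1.5 (1083 and 1147). No gene named in the text changed sign with a call, and 22 of its called genes lost their call in at least 1 setting, mostly with library totals alone. The interaction of krt5 was not called without wild-type 21 dpci replicate 2 (-0.58), nor was that of hspa5 with library totals alone (-0.46). Samples that share a number did not deviate together across genes, which are not independent replicates. Between 7 and 21 dpci r was 0.00535 in mutants and 0.0087 in wild types. Between the genotypes it was -0.0104 at 7 dpci and -0.0117 at 21 dpci. These values gave no sign of a pairing by number, though they cannot exclude it. With the number as a replicate block the counts were 2363 and 3177 genes and 1498 and 1235 interactions. A gene under 10 counts in all but 1 of the 4 samples was left out by the filter, so a change in it is not among the main counts. Without the filter 25202 genes were tested, of which 2362 were higher and 3286 lower.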

Other observations

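Of 17 genes of thrombocytes and coagulation, 9 fell and 1 rose, or 52.9% and 5.88% against 18.2% and 13.6% over all genes. Their median log2 fold change was -0.5. f13a1b, a subunit of the clot-stabilising factor XIII, was at 84.2 and 89 CPM at 7 dpci and 21.6 and 23.2 CPM at 21 dpci, the platelet receptor gene gp1bb went from 19.2 and 19.7 to 10.01 and 11.7 CPM and the integrin gene itgb3b from 38.7 and 40.3 to 22.5 and 24.1 CPM. The upregulated gene was f8, coagulation factor VIII, at 2633 and 2596 CPM at 7 dpci and 3956 and 4009.8 CPM at 21 dpci, more than the other genes of the list together, though its change was not called with library totals alone (0.41). Erythrocyte genes gave 3 upregulated and 2 downregulated of 21, or 14.3% and 9.52% against 13.6% and 18.2% over all genes. The hemoglobin chain gene hbaa1 was at 934 and 948, then 719 and 747 CPM and was called only with library totals alone (-0.56).

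Of 42 apoptosis genes, 12 fell and 2 rose, or 28.6% and 4.76% against 18.2% and 13.6% over all genes (median -0.2). The executioner caspase gene casp3a went from 33.8 and 31.9 to 20.1 and 21.6 CPM and the necroptosis kinase gene ripk3 from 5.35 and 5.63 to 1.53 and 1.91 CPM, whereas bnip3, which targets mitochondria for removal, rose from 17.6 and 16.5 to 39 and 40.6 CPM. Of 42 proteasome genes, 4 fell and 1 rose, or 9.52% and 2.38% against 18.2% and 13.6% over all genes, but 19 were called lower with library totals alone. The gene that rose was psme4a, a proteasome activator, at 29.2 and 27.6 CPM at 7 dpci and 72.4 and 71 CPM at 21 dpci.

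Of 52 ligand and receptor genes of growth factor pathways, 12 fell and 6 rose, or 23.1% and 11.5% against 18.2% and 13.6% over all genes. The neuregulin receptor gene erbb2 went from 23.6 and 20.8 to 38.3 and 39 CPM and the cardiac ligand gene bmp10 from 38.9 and 38.5 to 77.7 and 80.1 CPM, while the lymphatic growth factor gene vegfc fell from 5.82 and 5.44 to 2.76 and 2.52 CPM. Among 14 lymphatic genes 4 rose and 5 fell, or 28.6% and 35.7% against 13.6% and 18.2% over all genes. prox1a, a transcription factor that cardiomyocytes also express, was at 51 and 49.1 CPM at 7 dpci and 87 and 87.5 CPM at 21 dpci. Of 28 genes of heme and iron handling, 11 fell and 6 rose. The transferrin receptor gene tfr1b rose from 103 and 101 to 166 and 156 CPM (0.46 and not called with library totals alone), while hp, which encodes haptoglobin, fell from 9.68 and 10.7 to 1.97 and 2.16 CPM. The ferritin gene fthl28 went from 8.75 and 8.54 to 0.493 and 0.503 CPM, and since ferritin genes have close copies its value is uncertain.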
